A study of Mus musculus with 20 samples.

Results

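Mouse embryonic stem cell clones with both Trim71 alleles changed to R595H (R595H/R595H, titled R/R) were compared with clones with a single changed allele (R595H/+, titled R/plus). The 3 homozygous clones were C14, C20 and C24, and the 3 heterozygous clones were C15, C21 and C23. Members were chosen by the genotype in the titles. C14 and C15 each had a library from 2 dates in the titles, 20/1 and 5/2, and these were averaged first, so 8 of the 20 libraries of the series gave 6 clone values. The contrast asks what differs when the remaining normal allele is also changed.

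All cells were male C57BL/6 mouse embryonic stem cells grown with serum, LIF and the 2i inhibitors, which hold such cells in naive pluripotency. The other clones were WT (C16, C7 and C5). A separate conditional system held 4 libraries of Trim71-cond (Trim fl/fl) and 4 of Trim71-KO with the gene deleted. Bulk RNA was sequenced from libraries made with the TruSeq RNA v2 kit. How the R595H clones were made, and whether the 3 clones of a genotype arose independently, is not stated in the labels. The p-values here speak only to the spread between these clones. In bulk RNA, fewer cells of a type and less RNA per cell cannot be told apart.

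TRIM71 (LIN-41) is an RNA-binding protein of the TRIM-NHL family that is abundant in pluripotent cells and early embryos. Its NHL domain binds hairpins in target mRNAs, which are then repressed, and its RING domain is an E3 ubiquitin ligase. Trim71 is itself a classical target of the microRNA let-7, whose maturation LIN28 proteins block, and the human counterpart of R595H has been found in congenital hydrocephalus.

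The codon that R595H changes is shown first, because it defines both genotypes. Trim71 lies on the minus strand at chr9:114507133-114564369 (GRCm38, GENCODE vM21), and its protein has 855 residues. The arginine codon named in R595H is AGG, at 114513428 to 114513430 in exon 4 of 4, within the coding sequence. The reference stretch chr9:114513416-114513442 is given with that codon in capitals. The base change that the clones carry is not given in the labels.
Trim71 R595 codon: ggcaagctctgcAGGccctggggcgtg

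The let-7 sequence and 2 matching sites are shown because Trim71 and Hmga2, both classical let-7 targets, moved in opposite directions. The mature microRNA, from RefSeq on GRCm38.p6 (chr13:48538239-48538260, minus strand), has its seed, bases 2 to 8, in capitals. The sites are the first matches to CTACCTC in each annotated 3′ UTR. Capitals mark the match within the printed stretch, which is chr10:120364224-120364246 for Hmga2 and chr9:114512472-114512494 for Trim71, both on the minus strand of GRCm38.
mmu-let-7a-5p: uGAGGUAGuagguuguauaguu
Hmga2 site: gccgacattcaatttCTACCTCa
Trim71 site: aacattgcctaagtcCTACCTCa

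Values are the deposited normalized values, taken as log2, so a difference of 1 stands for 2-fold. Library medians lay between 5.15 and 5.20, while sequencing depth is unknown. The embryonic stem cell label held: 8 of 8 stem cell markers, among them Pou5f1, Sox2 and Nanog, passed the filter with means from 7.55 to 11.4, and 0 were called between the genotypes. Summed on the linear scale, these 8 ranged from 9902 to 11050 in R595H/R595H and from 9493 to 10692 in R595H/+. Of the markers of other cells, 0 of 5 mesoderm genes were in the table. The fibroblast marker Thy1, the only one of 7 in the table, averaged 1.86. Among 4 of 6 endoderm markers in the table, 0 passed the filter (means 0.08 to 2.37). Of 5 neural markers Sox1, Nes and Tubb3 were in the table and Nes and Tubb3 passed the filter, with 0 called and a mean of up to 6.19. Their linear sum was 84.2 to 99.3 in R595H/R595H and 89.8 to 105.4 in R595H/+.

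The libraries of some clones differed more than those of others. The 20/1 library of C15 correlated with the 5/2 library of the same clone at r = 0.30 over the tested genes, after each gene was centred on its mean over the libraries. The 2 libraries of WT C16, which enter through the shared spread, gave r = 0.24, and those of C14 gave r = 0.95. Between clones, the 5/2 library of C15 correlated with that of C21 at r = 0.71, above its r with its own 20/1 library. C24 correlated with both C14 libraries at r = 0.78 but with C20 at r = -0.13. C20 and the C14 libraries gave r = 0.30 (20/1) and 0.36 (5/2). The homozygous clones were thus not evenly alike, though each counts as a replicate in the fit. The SD over genes of the difference between the 2 libraries was 0.15 for C15 and 0.03 for C14. The mean of 4 Y-linked genes (Ddx3y, Eif2s3y, Uty and Zfy1) ran from 3.84 to 4.55 in the R595H/R595H libraries. It was 5.92 and 5.50 in the C15 libraries, 5.58 in C21 and 4.16 in C23. In WT it ran from 4.02 to 6.36. The transcript of Lars2 alone made up from 0.334% (C20) to 13.2% (C24) of the linear signal.

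Limma, fitted to the 6 clones with the 3 WT clones sharing the estimate of the spread, called 74 of 9580 tested genes at an adjusted p under 0.05, which is 0.772%. Of these, 55 were higher in R595H/R595H (0.574% of tested genes) and 19 were lower (0.198%). Called differences were small, with a median size of 0.45 and a range of 0.34 to 0.99, and 13 genes passed 1.5-fold (9 higher, 4 lower). None passed 2-fold, and the largest was 1.99-fold, for Peg10. At an unadjusted p under 0.05 there were 1793 genes (18.7%), 914 higher and 879 lower. The clones of both genotypes did not overlap for 2429 genes (25.4%), and the 74 called genes were among them.

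The number of calls rested on how the spread was estimated and on single libraries. Fitted on the 6 clones alone, limma called only Abcd3. Each of the 74 had an unadjusted p under 0.05 there, and their adjusted p-values reached at most 0.13. Without the 20/1 library of C15, 281 genes were called. Without single clones the count was 7 (C14), 12 (C15), 21 (WT C16 or C5), 22 (C21), 34 (C24), 58 (WT C7), 81 (C23) and 113 (C20). Of the 74, 7 kept the call without each of the 9 clones in turn: Trim71, Peg10, Ntn1, Abcd3, Plxnb2, Abca1 and Rnf213. Each call kept its direction in those of the 23 alternatives that tested the gene, which is a description only. Several alternatives, such as the 6-clone fit and the fits without a WT clone, change only the spread or the genes tested. Leaving out a clone could not turn a direction either, since the genotypes did not overlap for these 74 genes. The plot of calls by setting shows the whole range.

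**Figure D1:**
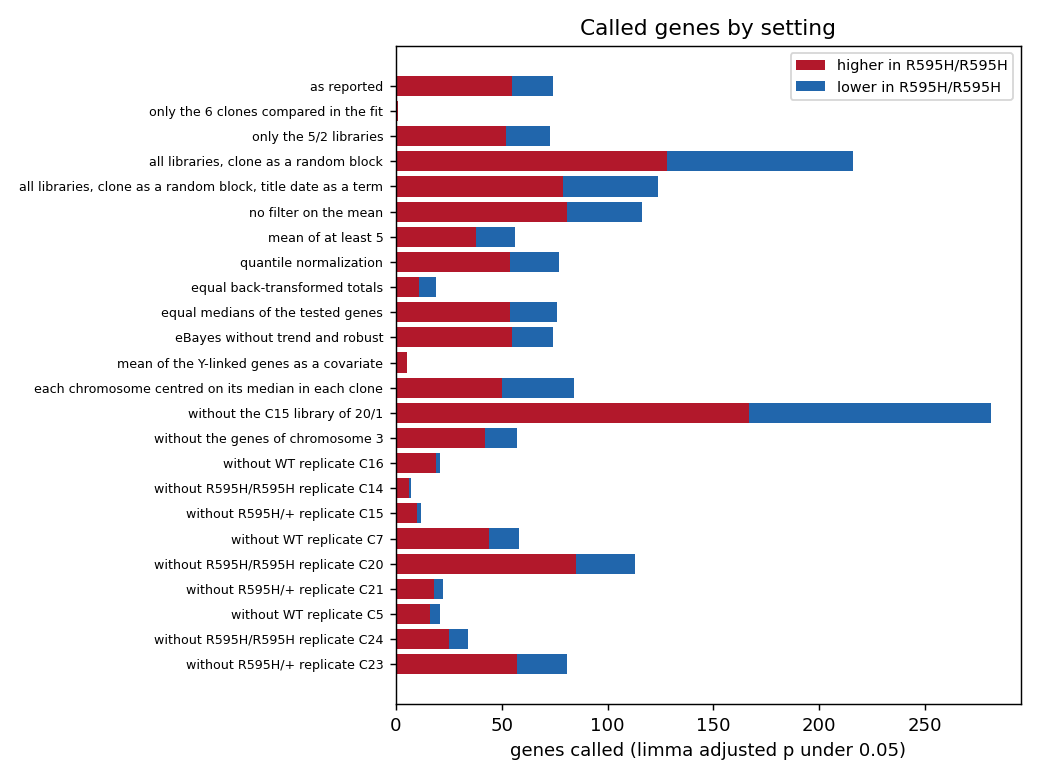
Number of genes called between R595H/R595H and R595H/+ (x axis, limma adjusted p under 0.05) under each way of processing (y axis), split into genes higher (red) and lower (blue) in R595H/R595H. The count is 74 as reported, 1 when only the 6 clones enter the fit, and 281 without the 20/1 library of C15.

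Trim71 transcript was higher in the homozygous clones. Its level was 10.14 in C14, 10.00 in C20 and 10.18 in C24, against 9.55 in C15, 9.63 in C21 and 9.57 in C23 and, in WT, 9.53 in C16, 9.49 in C7 and 9.48 in C5. All 3 R595H/R595H clones lay above every R595H/+ and WT clone. The heterozygous clones lay just above those of WT, but their mean difference from WT, 0.08 ± 0.07 (SE), did not pass (limma adjusted p 0.83). The means were 10.11 ± 0.10 and 9.58 ± 0.04 (SD, n = 3 clones each), a difference of 0.53 ± 0.07 (SE, limma adjusted p 0.0052). The two-sided exact permutation p was 0.1, the smallest that 20 splits of 3 against 3 clones allow. The change is a substitution, so this level checks no label. In Trim71-KO the transcript moved the other way, by -1.48 ± 0.06 (limma adjusted p 8.2e-14). The labels do not say what stretch was removed, so that level says nothing of intact transcript.

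The largest rises came from genes of several roles. Peg10, an imprinted gene derived from a retrotransposon and needed for placenta formation, showed the largest difference. It was at 6.01 in C14, 6.05 in C20 and 5.81 in C24, against 4.67 in C15, 4.96 in C21 and 5.26 in C23. The heterozygous clones were spread over 0.59 but stayed below every homozygous clone, and the WT mean of 4.99 fell within their range. The difference was 0.99 ± 0.14 (SE, limma adjusted p 0.0070). Peg10 lies at chr6:4747306-4760517 (GRCm38). In Trim71-KO it stood at -0.34 ± 0.14 relative to Trim71-cond (limma adjusted p 0.11).

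Ntn1 encodes the guidance cue netrin-1 (chr11:68209364-68400823). It measured 6.62 in C14, 6.77 in C20 and 6.54 in C24, against 5.90 in C15, 6.04 in C21 and 5.62 in C23. The highest heterozygous clone, C21, was still below the lowest homozygous clone, C24. The difference was 0.79 ± 0.11 (SE, limma adjusted p 0.0070), and WT averaged 5.61. Plxnb2 encodes a plexin, a receptor for semaphorins, and is a reported TRIM71 target (chr15:89155549-89180788). Its level was 8.47 in C14, 8.64 in C20 and 8.39 in C24, against 7.78 in C15, 7.72 in C21 and 7.92 in C23, a difference of 0.70 ± 0.09 (SE, limma adjusted p 0.0037). No clones overlapped. The ephrin receptor gene Epha4 rose by 0.59 ± 0.12 (SE, limma adjusted p 0.039), from 7.20 ± 0.20 to 7.79 ± 0.19 (SD, n = 3 each).

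Genes of lipid transport and storage were also among the 12 largest rises. Abcd3 encodes a transporter that carries fatty acids into peroxisomes (chr3:121758774-121815302). It was at 8.53 in C14, 8.48 in C20 and 8.50 in C24, against 7.77 in C15, 7.85 in C21 and 7.78 in C23, so that each genotype was tight and the gap wide. The difference of 0.70 ± 0.07 had the lowest adjusted p of all tested genes (0.0011, limma). Abca1, the cholesterol efflux transporter (chr4:53030787-53159895), was at 5.99 in C14, 5.88 in C20 and 6.08 in C24, against 5.38 in C15, 5.34 in C21 and 5.31 in C23, a rise of 0.64 ± 0.09 (SE, limma adjusted p 0.0070). Bscl2, which encodes the lipid droplet protein seipin, rose by 0.60 ± 0.09 (limma adjusted p 0.0076).

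Other large rises were in genes of the nuclear envelope, cytoskeleton and matrix. Lmna, encoding the nuclear lamins A and C, was at 5.43 in C14, 5.65 in C20 and 5.54 in C24, against 4.97 in C15, 4.47 in C21 and 5.07 in C23. Clone C21 stood well below the other heterozygous clones, and the difference of 0.70 ± 0.13 had a limma adjusted p of 0.030. Dab2ip, a Ras GTPase-activating protein, rose by 0.62 ± 0.10 and Frmd4b, a scaffold protein, by 0.58 ± 0.11. Lpp, a focal adhesion protein, rose by 0.57 ± 0.09. The laminin gene Lama1 rose by 0.50 ± 0.08. The keratin gene Krt18 rose by 0.57 ± 0.10 and its partner Krt8 was 0.46 ± 0.11 higher without passing the test (limma adjusted p 0.063). Krt18 is also a marker of trophectoderm. Of 4 defining trophectoderm markers Gata3 and Krt7 were in the table, below the filter, with a linear sum of 8.76 to 9.89 in R595H/R595H clones and 8.09 to 9.42 in R595H/+.

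**Figure D2:**
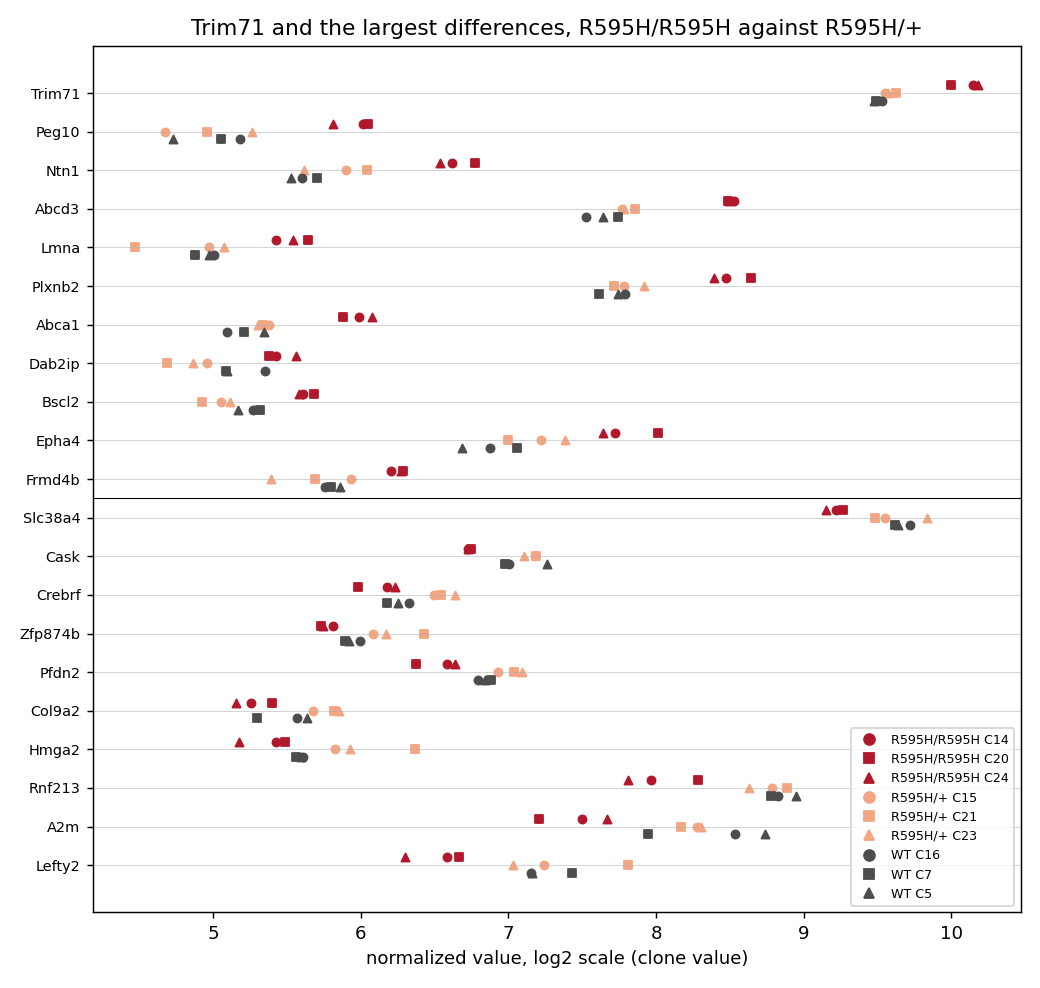
Clone values (x axis, normalized value on the log2 scale) of Trim71 and of the 10 largest rises and 10 largest falls (y axis, one gene a line), with R595H/R595H in red, R595H/+ in orange and WT in grey, each symbol being 1 clone. Red and orange symbols do not overlap for any gene shown, and the WT means lie nearer the red symbols for Dab2ip, Hmga2, Col9a2, Zfp874b and Crebrf.

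The falls included a signalling antagonist, a protease inhibitor and a ubiquitin ligase. Lefty2 encodes a secreted antagonist of Nodal (chr1:180893108-180899103). It was at 6.59 in C14, 6.66 in C20 and 6.30 in C24, against 7.24 in C15, 7.81 in C21 and 7.03 in C23. C21 was the highest heterozygous clone, and the lowest, C23, was still above every homozygous clone. The difference was -0.84 ± 0.16 (SE, limma adjusted p 0.030). Its relative Lefty1 stood at -0.44 ± 0.10, just outside the threshold (limma adjusted p 0.058). Rnf213 encodes a large ubiquitin ligase (chr11:119393100-119487418). It measured 7.96 in C14, 8.28 in C20 and 7.81 in C24, against 8.79 in C15, 8.89 in C21 and 8.63 in C23 and a WT mean of 8.85, a difference of -0.75 ± 0.11 (SE, limma adjusted p 0.0070).

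A2m, a broad protease inhibitor, was at 7.50 in C14, 7.21 in C20 and 7.67 in C24, against 8.28 in C15, 8.17 in C21 and 8.30 in C23, a difference of -0.79 ± 0.16 (SE, limma adjusted p 0.036). Hmga2 encodes an architectural chromatin protein of embryonic and stem cells (chr10:120361275-120476469). It was at 5.42 in C14, 5.49 in C20 and 5.17 in C24, against 5.83 in C15, 6.37 in C21 and 5.93 in C23, a difference of -0.68 ± 0.13 (SE, limma adjusted p 0.030). WT clones were at 5.61 in C16, 5.56 in C7 and 5.60 in C5, between the genotypes. The difference from WT was -0.23 ± 0.13 in R595H/R595H and 0.45 ± 0.13 in R595H/+ (SE, limma adjusted p 0.32 and 0.50), and neither passed. Leaving out single clones ended the call of Hmga2 in 5 of 9 cases, of Lefty2 in 6 and of A2m in 7.

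Smaller falls covered several roles. The collagen gene Col9a2 fell (-0.51 ± 0.10), as did Pfdn2 (-0.49 ± 0.09) and Pfdn6 (-0.38 ± 0.08), subunits of the prefoldin chaperone that delivers actin and tubulin for folding. The adhesion molecule gene Pecam1 fell (-0.38 ± 0.07), and so did the synaptic scaffold kinase gene Cask (-0.42 ± 0.08) and the kinase gene Sgk3 (-0.41 ± 0.09). Slc38a4, an imprinted amino acid transporter gene, fell (-0.41 ± 0.09), while Peg10, the other imprinted gene called, rose. Zfp874b (-0.46 ± 0.10), Crebrf (-0.43 ± 0.09) and the metallopeptidase gene Lmln (-0.40 ± 0.09) completed the 12 largest, after 1 predicted gene was passed over. Limma adjusted p-values of these genes ran from 0.027 for Pfdn2 to 0.049 for Sgk3.

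Genes past 1.5-fold that failed the test are given as values only, with names chosen after their values were seen. There were 7, Egln3, Slc6a15, Bnip3, Hist1h4n and the Y-linked genes Ddx3y, Eif2s3y and Uty, all lower in R595H/R595H. Ddx3y, an RNA helicase gene of the Y chromosome, was at 4.85 in C14, 4.37 in C20 and 5.30 in C24, against 7.19 in C15, 6.96 in C21 and 4.91 in C23. C23 lay within the homozygous range, and the difference of -1.51 ± 0.99 had a limma adjusted p of 0.47. When the clones' Y-linked mean entered the fit as a covariate, 5 of the 74 calls were kept (5 higher, 0 lower): Trim71, Peg10, Abcd3, Plxnb2 and Abca1. Of the lost calls, Ntn1 was at 0.81 (limma adjusted p 0.051), Rnf213 at -0.70 (0.078) and Lefty2 at -0.82 (0.12), against 0.79, -0.75 and -0.84 without the covariate. Peg10 went from 0.99 to 0.78. The covariate was itself correlated with genotype (r = -0.66), so this fit could only partly separate Y-linked level from genotype. Whether Y-linked level had a part in the lost calls was not tested.

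The WT clones share the fit and are set beside the others as levels. Of the 74 called genes, the WT mean lay between the genotypes and nearer R595H/+ for 36, beyond R595H/+ for 29, and between but nearer R595H/R595H for 9. It lay beyond R595H/R595H for 0. So the WT mean was nearer R595H/+ for 65 of 74 (all tested genes 63.0%). Among the 9 were Hmga2, Col9a2, Zfp874b and Crebrf, which were lower in R595H/R595H, and Dab2ip and Pcdhgc3, which were higher. Pcdhgc3, a clustered protocadherin gene, measured 3.95 in C14, 3.88 in C20 and 3.99 in C24, against 3.50 in C15, 3.45 in C21 and 3.50 in C23 and a WT mean of 3.83. Over the same genes, R595H/R595H against WT gave 327 calls (3.41%), and R595H/+ against WT gave 0 by limma, with 729 at an unadjusted p under 0.05 (7.61%). These comparisons share clones with one another, so their calls were not overlapped.

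Naive pluripotency genes were counted from a list of 30, of which 29 were tested: 4 rose, 0 fell, and the median difference was 0.11 (all tested genes -0.0016, of which 0.772% were called). The 4 were Tet2, Klf4, Spp1 and Manba. With these included, 11 were higher and 1 lower at an unadjusted p under 0.05 (914 higher and 879 lower of all 9580). Tet2 encodes an enzyme that oxidizes 5-methylcytosine. It was at 10.35 in C14, 10.43 in C20 and 10.27 in C24, against 9.87 in C15, 9.95 in C21 and 9.87 in C23, a rise of 0.45 ± 0.07 (SE, limma adjusted p 0.015). Klf4, a core factor of the naive state, was at 8.87 in C14, 8.98 in C20 and 8.83 in C24, against 8.52 in C15, 8.48 in C21 and 8.61 in C23, a rise of 0.36 ± 0.07 (SE, limma adjusted p 0.032). Spp1, encoding osteopontin, rose by 0.43 ± 0.09, and the lysosomal mannosidase gene Manba by 0.48 ± 0.10. Nanog stood 0.18 ± 0.07 higher without passing (limma adjusted p 0.22). Relative to the WT mean, the list's median was 0.11 in C14, 0.12 in C20 and 0.14 in C24, against 0.02 in C15, -0.07 in C21 and 0.05 in C23. Tet2 and Manba lie on chromosome 3, whose genes were shifted as a whole in some clones (given with the results by chromosome).

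Formative and primed genes had 0 called of 14 (median -0.01), with 4 higher and 2 lower at an unadjusted p under 0.05. Dnmt3b, a de novo DNA methyltransferase gene, was 0.43 ± 0.11 higher (limma adjusted p 0.073), while Cdh2 stood at -0.32 ± 0.09 (limma adjusted p 0.094). The series title names neural differentiation. Of 7 neural progenitor genes tested, Hmga2 fell, 0 rose and the median was -0.0040. Of 11 neuronal genes 0 were called (median -0.03), with 3 higher and 1 lower at an unadjusted p under 0.05, and the neurofilament gene Nefm was 0.42 ± 0.11 higher (limma adjusted p 0.079). Of 23 axon guidance genes (netrins, semaphorins, ephrins and slits with their receptors), Plxnb2, Ntn1 and Epha4 rose, where 0.574% of all tested genes did, and the median was 0.05. With these 3 included, 8 were higher and 0 lower at an unadjusted p under 0.05 (914 higher and 879 lower of all 9580), among them the semaphorin gene Sema6a (0.30 ± 0.08, limma adjusted p 0.073).

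Of 14 reported TRIM71 mRNA targets tested, Plxnb2 rose and 0 fell, at a median of 0.04. Cdkn1a, the p21 cell cycle inhibitor gene and a well known TRIM71 target, was at 5.73 in C14, 5.41 in C20 and 5.98 in C24, against 5.43 in C15, 5.09 in C21 and 5.42 in C23. C20 fell within the heterozygous range, and the difference was 0.39 ± 0.13 (SE, limma adjusted p 0.14). Of 20 let-7 targets and Lin28 genes, Trim71 rose, Hmga2 fell and the median was -0.04. Lin28b, named here after its values were seen, was at 5.57 in C14, 5.97 in C20 and 5.26 in C24, against 5.85 in C15, 6.36 in C21 and 5.53 in C23, with overlapping clones (difference -0.31 ± 0.21, limma adjusted p 0.44). The let-7 seed match CTACCTC occurred in the 3′ UTR, read on the transcript strand, of 883 of 9320 tested genes with an annotated one (9.47%), and in 8 of 72 called genes, 5 higher and 3 lower. The median difference was 0.0068 with a match and -0.0025 without. Trim71 and Hmga2 held 4 matches each. A match is not shown to be a site in these cells.

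Machinery around TRIM71 gave no calls. Of 45 microRNA and deadenylation genes 0 were called (median -0.02), with 4 higher and 6 lower at an unadjusted p under 0.05, including the decapping factor gene Edc3 (-0.34 ± 0.09, limma adjusted p 0.073). Of 18 NHL and TRIM relatives 0 were called (0 higher and 4 lower unadjusted, median -0.0059). Of 18 hydrocephalus risk genes only Trim71 passed (median -0.03).

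Stress and cell cycle lists held few calls. Of 29 p53 targets, Pidd1, a p53-induced death domain gene, rose by 0.47 ± 0.10 (limma adjusted p 0.043). The list's median was 0.14 and 21 of 29 were above 0, with 10 higher and 4 lower unadjusted. Eda2r was 0.50 ± 0.14 higher and Pmaip1 (Noxa) -0.45 ± 0.10, neither passing (limma adjusted p 0.094 and 0.058). Amino acid and integrated stress response genes had 0 of 24 called (5 higher and 0 lower unadjusted), a median of 0.13 and 21 members above 0. Relative to WT, the list's median was 0.12 in C14, 0.18 in C20 and 0.14 in C24, against 0.01 in C15, -0.17 in C21 and 0.20 in C23, so C23 lay above every homozygous clone. Asparagine synthetase, Asns, was at 11.23 in C14, 11.49 in C20 and 11.14 in C24, against 11.02 in C15, 10.99 in C21 and 10.99 in C23 (difference 0.28 ± 0.08, limma adjusted p 0.096). S phase genes had 0 of 36 called (2 higher and 7 lower unadjusted), a median of -0.12 and 8 members above 0, with cyclin E1, Ccne1, at -0.32 ± 0.11 (limma adjusted p 0.15). G2/M genes had 0 of 30 called (1 higher and 3 lower unadjusted) at a median of 0.01.

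Hypoxia and glycolysis genes had 0 of 29 called, with 10 lower and 0 higher at an unadjusted p under 0.05, and the lowest median of the lists with at least 5 tested members, -0.19. Egln3, an oxygen-sensing prolyl hydroxylase gene, was at 4.46 in C14, 4.05 in C20 and 4.78 in C24, against 5.30 in C15, 4.91 in C21 and 5.18 in C23. The genotypes did not overlap, but clones of 1 genotype differed by up to 0.73, and the limma adjusted p of -0.70 ± 0.17 was 0.070. Relative to WT, the list's median was -0.12 in C14, -0.35 in C20 and 0.07 in C24, and 0.12 in C15, -0.13 in C21 and 0.20 in C23. The genotypes thus overlapped at the level of the list.

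Among signalling lists, Wnt response genes had 0 of 9 called (0 higher and 4 lower unadjusted) and a median of -0.15, and BMP, Nodal and TGF-beta genes had 1 of 17, Lefty2 (median -0.07). MAPK and FGF feedback (0 of 9, 2 higher and 1 lower unadjusted), Notch (0 of 11, 2 higher and 0 lower unadjusted) and immediate early genes (0 of 12, 3 higher and 0 lower unadjusted) had no calls. Polycomb and chromatin regulators had 0 of 27 called (1 higher and 3 lower unadjusted), and of 17 DNA methylation genes only Tet2 rose, both lists with medians near 0 (-0.02 and -0.00064). Imprinted genes had Peg10 risen and Slc38a4 fallen of 14 (median 0.04), and germ line genes 0 of 21 (4 higher and 1 lower unadjusted, median -0.09).

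Of 10 endoderm and basement membrane genes Lama1 rose, at a median of 0.16, and of 5 trophectoderm genes Krt18 rose (median 0.08). The endoderm markers in the table summed to 8.52 to 10.9 in R595H/R595H clones and 8.86 to 10.4 in R595H/+ on the linear scale. Cholesterol and lipid genes had Abca1 risen of 34 (2 higher and 4 lower unadjusted, median -0.04). Peroxisome genes had Abcd3 risen of 26 (2 higher and 0 lower unadjusted, median 0.05). Interferon response genes with Rnf213 had that gene fallen of 19 (0 higher and 5 lower unadjusted, median 0.04). Lists of mitochondrially encoded (7 tested), ribosomal protein (76), thioredoxin and metallothionein (24) and adhesion and polarity genes (27) had 0 calls each. Unadjusted, these had 1, 1, 1 and 3 members higher and 0, 6, 0 and 4 lower. The plot of list members shows each gene.

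**Figure D3:**
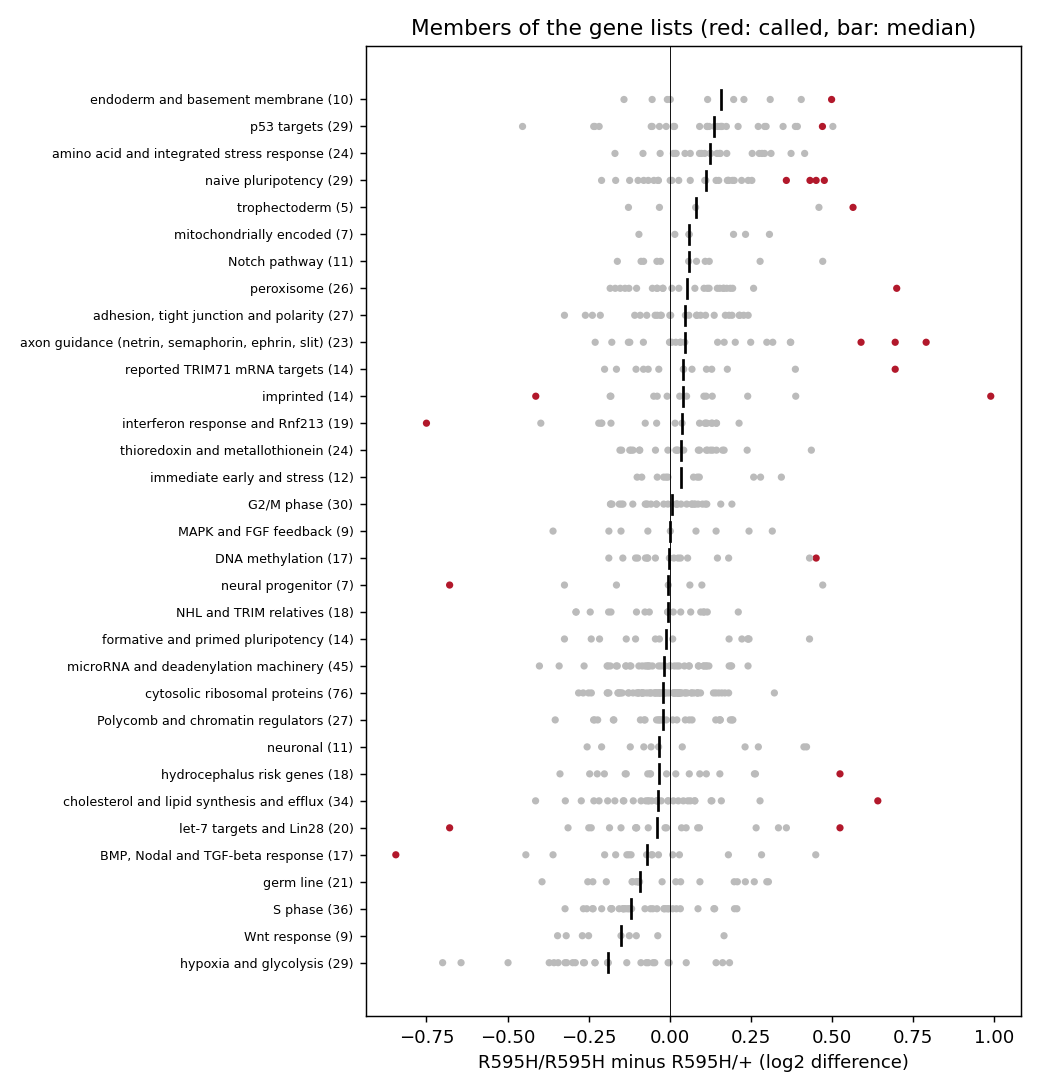
Difference R595H/R595H minus R595H/+ (x axis, log2) of each tested member of the gene lists (y axis, number of tested members in brackets), for lists with at least 5 tested members, ordered by median. Red points passed limma at an adjusted p under 0.05, grey points did not, and black bars are medians, which run from -0.19 for hypoxia and glycolysis to 0.16 for endoderm and basement membrane.

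Chromosome 3 held 11 of the 74 calls, all higher in R595H/R595H, which is 2.41% of its 456 tested genes against 0.772% of all. The 11, named after their positions were seen, were Abcd3, Lmna, Ssr2, Manba, Tet2, Cth, Ptgfrn, Zzz3, Bcas2, Nudt17 and Lrba, with differences from 0.70 to 0.34. The whole chromosome was shifted: its median difference was 0.12, and 79.8% of its genes were higher in R595H/R595H, against 48.0% elsewhere. Relative to the WT mean, the chromosome's median was 0.13 in C14, 0.04 in C20 and 0.19 in C24, against 0.03 in C15, -0.03 in C21 and 0.00 in C23. In C14 and C24 it was above 0 in each window of 20 Mb, and in C20 it passed 0.10 only between 80 and 100 Mb, at 0.13. DNA copy number was not measured, and its part in these calls was not tested.

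With each chromosome centred on its median in each clone, an alternative chosen after these shifts were seen, 84 genes were called, 50 higher and 34 lower, and 56 of the 74 were among them. Abcd3 kept its call (0.57, limma adjusted p 0.0027) and Lmna narrowly (0.57, adjusted p 0.049). Tet2 (0.32, adjusted p 0.064) and Manba (0.35, adjusted p 0.097) did not. Scaling each library to the same linear total instead left 19 calls, 11 higher and 8 lower, with a median shift of -0.04 over all genes. That total was highest in C24 (1938850) and lowest in C20 (1666910). These homozygous clones also had the highest and lowest share of Lars2 in it (13.2% and 0.334%), so this scaling partly follows a single transcript. Other chromosomes were also shifted in some clones: chromosome 8 by 0.17 in C20 and 0.09 in C23, chromosome 11 by 0.10 in C21, and X by 0.18 in C21, 0.10 in C24, 0.08 in C14 and -0.07 in C20.

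**Figure D4:**
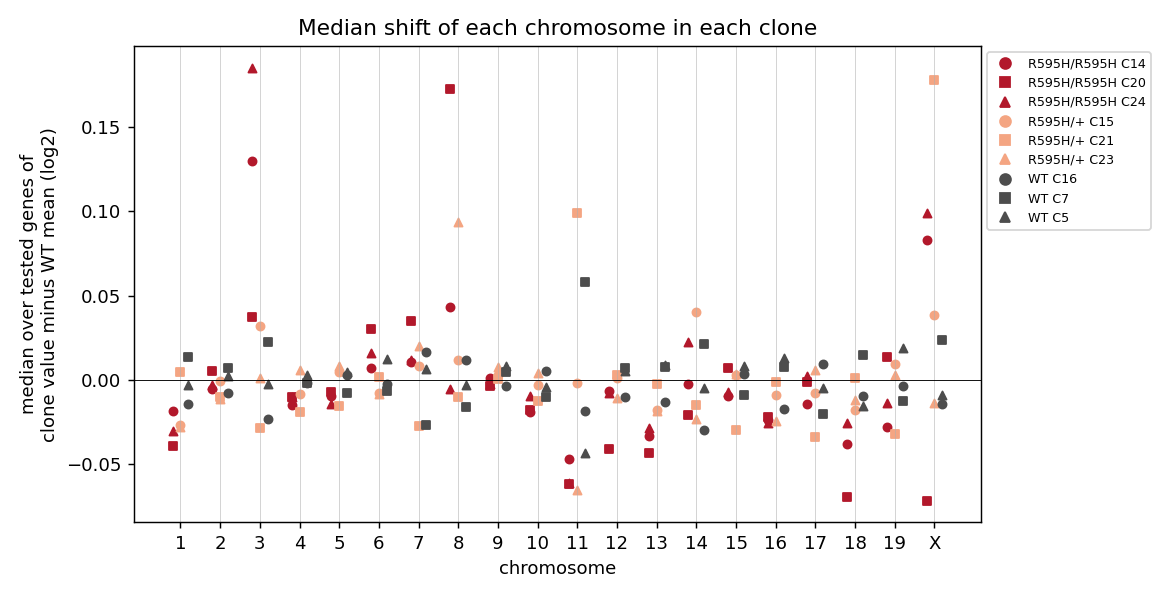
Median over the tested genes of each chromosome (x axis) of the clone value minus the WT mean (y axis, log2), with R595H/R595H in red, R595H/+ in orange and WT in grey, each symbol being 1 clone. Chromosome 3 is highest in C24 (0.19) and C14 (0.13), chromosome 8 in C20 (0.17) and the X chromosome in C21 (0.18).

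The conditional system shares no library with this comparison and measured the deletion of Trim71 in other cells. Limma called 1783 of 9580 genes there (18.6%), 885 higher (9.24%) and 898 lower (9.37%) in Trim71-KO. Without the libraries of code 2B there were 978 calls, without 3A 1129 and without 3B 1124. Of the 74 genes called between the R595H genotypes, 34 were called in Trim71-KO as well, which is 45.9% of the 74 and 1.91% of the Trim71-KO calls. The sign was the same for 32 of these, 25 higher and 7 lower. Whether called or not, 66 of the 74 had the same sign in both, against 62.3% of the 9524 genes tested in both. The difference in Trim71-KO had a median of 0.24 over genes higher here and of -0.26 over genes lower here.

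Among genes that rose in both, Ntn1 was 1.32 ± 0.08 higher in Trim71-KO, Plxnb2 0.86 ± 0.07 and Abcd3 0.75 ± 0.06 (SE, n = 4 against 4, limma adjusted p 4.5e-10, 1.4e-07 and 1.4e-07). Klf4 rose by 0.74 ± 0.07 there, Lpp by 0.55 ± 0.08, Lama1 by 0.52 ± 0.08 and Bscl2 by 0.42 ± 0.10. Dglucy, a D-glutamate metabolism gene, rose by 0.55 ± 0.12 between the R595H genotypes and by 0.98 ± 0.11 in Trim71-KO. Rnf213 fell in both (-1.05 ± 0.10 in Trim71-KO), as did Col9a2 (-0.65 ± 0.09), Cask (-0.44 ± 0.07) and Pfdn6 (-0.37 ± 0.07).

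The 2 genes with opposite calls were Trim71 and Krt18, which was -0.63 ± 0.16 in Trim71-KO (limma adjusted p 0.011). Of the other large differences, Abca1 (0.21 ± 0.09, limma adjusted p 0.12), A2m (-0.16 ± 0.09, 0.22), Lefty2 (-0.39 ± 0.15, 0.091) and Hmga2 (-0.30 ± 0.11, 0.070) did not pass in Trim71-KO. Of the 11 chromosome 3 genes, 5 were called higher in Trim71-KO as well.

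Read from the other side, the 878 genes called higher in Trim71-KO and tested here had a median R595H/R595H minus R595H/+ difference of 0.11, and 78.5% were above 0. The 895 called lower had a median of -0.10, and 73.0% were below 0. Of all genes tested in both, 49.5% were above 0. Across the 9524 genes the 2 differences correlated at Pearson's r = 0.38 and Spearman's rho = 0.35. Genes are not independent replicates, and the points of each axis share their libraries.

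**Figure D5:**
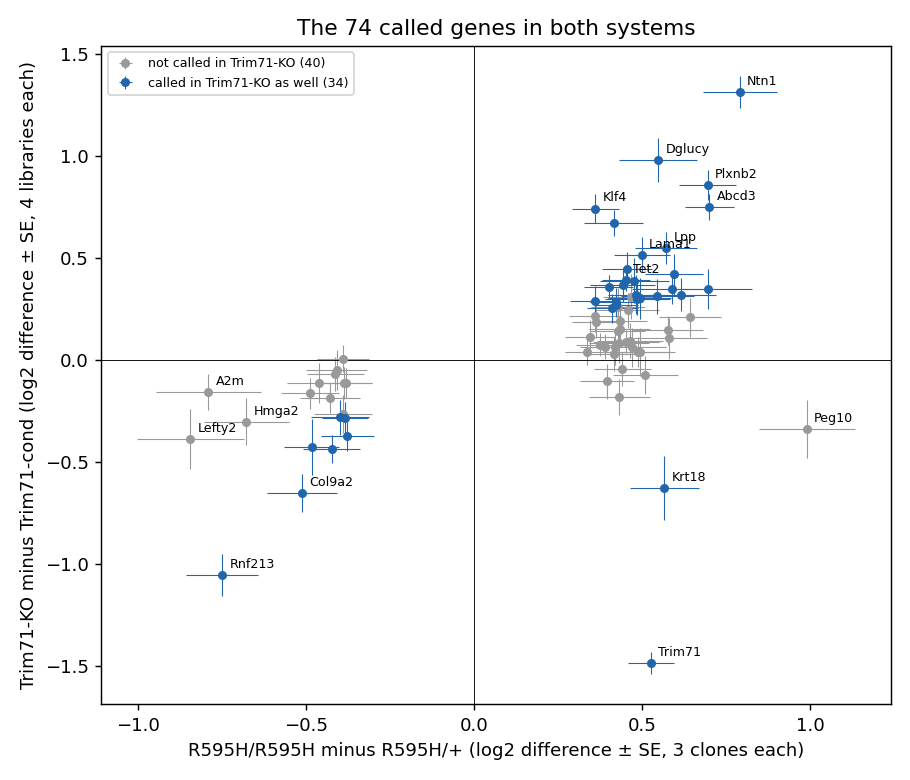
The 74 called genes, with the difference R595H/R595H minus R595H/+ on the x axis (3 clones each) and Trim71-KO minus Trim71-cond on the y axis (4 libraries each), both log2 with SE bars. Blue points (34) were called in Trim71-KO as well, 32 of them in the quadrants of equal sign, and Trim71 and Krt18 lie in the lower right.

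C14 and C15 each had a library at both title dates, which gave a comparison within each title date. The titles do not say what step the dates mark. C14 minus C15 had the sign of the call at both dates for 74 of 74 genes (over all tested genes, 74.4% had the same sign at both dates). The median size in the direction of the call was 0.38 at 20/1 and 0.44 at 5/2. These clones were part of the calls, so this is a description. With only the 5/2 libraries, 73 genes were called, and 59 of them were among the 74.

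The spread among clones was described for each genotype. The median SD among clones over genes was 0.08 for R595H/R595H, 0.11 for R595H/+ and 0.10 for WT. Lars2, which encodes a mitochondrial leucyl-tRNA synthetase, varied most in both R595H genotypes. It was at 15.82 in C14, 12.44 in C20 and 17.96 in C24, against 15.59 in C15, 13.06 in C21 and 16.08 in C23. The mitochondrially encoded gene mt-Nd6 also varied, at 9.38 in C14, 7.82 in C20 and 10.06 in C24, against 9.19 in C15, 8.76 in C21 and 9.60 in C23, and neither gene was called (limma adjusted p 0.90 and 0.95).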

How the data were processed

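The data are 20 bulk RNA-seq libraries. The authors deposited one table of normalized scores for 13283 gene symbols. They look like log2 values from DESeq2, but base and transformation are not stated. Per the submitters' processing notes, CASAVA 1.8, STAR and DESeq2 were used. The sources used here do not give the genome build, annotation or counting, and shrinkage of low values would understate their differences. Values run from -0.65 to 18.0.

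Libraries of a clone were averaged. Limma 3.58.1 (R 4.3.3; lmFit, eBayes with trend and robust) was fitted to 9 clones, or to the 8 conditional libraries, keeping genes whose mean reached 3.32 (10 when unlogged). The threshold was a Benjamini-Hochberg adjusted p under 0.05, and the code was tested on simulated data. Positions are from GENCODE vM21. The "day" label of the clone libraries disagrees with the title dates, which were used.

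Members and the 38 gene lists were chosen with earlier results of these data known. Named were Trim71, the 12 largest rises and falls among called genes without overlap, up to 4 members of each list by p, up to 8 genes per direction called in both systems, and 5 genes of highest clone SD per genotype. Others are said to be chosen after their values were seen. A called gene is not reported here. Lists of under 5 tested members (mesoderm, two-cell-like, fibroblast, Y-linked, X-inactivation) had 0 calls. Alternatives covered the samples and libraries in the fit, clone as a block, the date, filter, scaling, moderation, a Y-linked covariate and each clone left out.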

Additional observations from a re-analysis of the deposited data

Results flagged for a closer look

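For the 34 genes called in both systems, the 4 Trim71-cond and the 4 Trim71-KO libraries were each searched for a single library far from the others. The clone groups, at 3, were too small. Of 68 groups of 4 values, 3 held such a library, where chance gives about 1 in 20. Lmna was at 4.64 in Trim71-cond 3B, with the others between 4.95 and 4.96. Col9a2 was at 5.52 in the same library, with the others between 5.70 and 5.73. Fah, a tyrosine catabolism gene, was at 3.22 in Trim71-cond 3A, with the others between 3.43 and 3.45.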

How the results depend on the processing

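As reported, 74 genes were called. Other settings gave 1 call with only the 6 clones in the fit (27 at an adjusted p under 0.1), 216 with all libraries and clone as a random block (within-clone correlation 0.62), 124 with the title date added, 116 without the filter, 19 with equal linear totals and 5 with the Y-linked covariate. Filtering at a mean of 5 (56), quantile normalization (77), equal medians (76), eBayes without trend and robust (74) and the 5/2 libraries alone (73) stayed within 1.5 times. Of those chosen after seeing the data, leaving out the C15 20/1 library gave 281, chromosome centring 84 and leaving out chromosome 3 genes 57. Leaving out single clones gave 7 (C14) to 113 (C20), with 12 without C15, 21 without WT C16 or C5, 22 without C21, 34 without C24, 58 without WT C7 and 81 without C23.

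The 6-clone fit cannot alter the Trim71 difference of 0.53, only its spread, and gave it a limma adjusted p of 0.077. With single clones left out, the Trim71 difference ranged from 0.49 to 0.58. Peg10, Abcd3, Plxnb2, Abca1 and Trim71 kept their calls in each alternative that tested them except the 6-clone fit, which called only Abcd3.

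For the replicate codes of the conditional system, deviations of same-coded libraries correlated at -0.89 (1A), -0.09 (2B), -0.12 (3A) and 0.13 (3B). These values differ in size and sign. With 4 libraries in each group they cannot settle whether the codes mark pairs. With the replicate block, Trim71-KO gave 1392 calls (1783 without it), of which 34 were shared in sign with the R595H calls (32 without the block). Leaving out a code gave 978 to 1496 calls, and 23 to 31 shared. No pseudocount was tried, since the values were already on a log scale. Depth is unknown, so its limits cannot be given.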
